A study of Mus musculus with 16 samples.

Results

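The regions described here were accessible in mouse heart in both feeding states and carried no listed peak in any of the other 7 tissues of the series. The assay was ATAC-Seq, which marks open chromatin where the transposase Tn5 can insert adapters, and each of 16 libraries was deposited as a list of peaks. Besides heart, the libraries covered kidney, lung, liver, spleen, muscle and both brown and white adipose of wild-type male C57BL/6 mice, either fed or fasting, with fed mice eating ad libitum and fasting mice left without food for 24 h. The mice were acquired at 12 weeks of age. Tissue of 3 mice was pooled for each library, so each tissue and state was 1 library with no replicate, and the tissues of a state shared their mice. No difference between libraries can therefore be tested against the spread between animals, and every value below is a description. All intervals are exact Clopper-Pearson 95% intervals and cover counting error only.

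The private regions were chosen by the peak lists themselves. A region of the fed heart list counted when its q value was under 0.01, it overlapped a fasting heart region with q under 0.01 by at least 1 bp, and it overlapped no peak of any strength in the other 14 lists. Of 77806 heart regions present in both states, 2763 met this rule (3.55%), and they overlapped 2698 fasting regions, so a few neighbouring members shared 1 fasting value. The whole series held 2640607 regions with q under 0.01 when summed over its 16 libraries. The same rule gave 3227 regions in white adipose (3.36% of its regions in both states), 5448 in brown adipose (5.84%), 10397 in lung (8.78%), 11861 in liver (11.4%), 14685 in muscle (12.2%), 16236 in spleen (14.9%) and 22221 in kidney (16.5%). Presence in both heart lists and absence from the others were fixed by the rule and are not findings, whereas position, sequence and nearby genes were not used by it.

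Open regions away from gene starts are often enhancers, which are bound by transcription factors of the cell type and can act on a gene from a distance. In the heart, cardiomyocytes contract when calcium enters through L-type channels and releases stored calcium through the ryanodine receptor Ryr2, and their gene programme is known to depend on factors of the MEF2, GATA, NKX2 and TBX families. Heart tissue also holds fibroblasts, endothelial cells, smooth muscle and blood cells. In bulk tissue, fewer nuclei of one cell type and lower accessibility per nucleus cannot be told apart.

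The label of the tissue was checked at the starts of 15 cardiomyocyte genes. The strongest peak within 3000 bp of their starts had a median percentile rank by p value of 91.1 in fed heart and 87.5 in fasting heart, where 100 is the strongest region of a list. In the other 14 libraries this median lay between 15.2 and 71.6. None of the 15 genes lacked a peak in heart, and 9 of 15 had their highest mean rank there. Tbx20, a cardiac transcription factor, ranked 98.4 in fed and 98.1 in fasting heart, while Mybpc3, a sarcomere protein, ranked 76.2 or more in every library. Ryr2 ranked 91.0 in fed and 91.2 in fasting heart but 99.2 and 99.1 in kidney. Nppa ranked 65.7 and 47.0 in heart but 73.6 and 59.2 in spleen. Nkx2-5 ranked 95.4 and 91.5 in heart beside 89.6 and 83.3 in liver. An open promoter was thus not particular to heart for each of these genes.

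Sequences of 8 members, taken from the RefSeq copy of GRCm38 on the plus strand, reach 100 bases to each side of the fed summit, with matches to the searched motifs in capitals. They are shown because they are the 5 highest-ranking members with a motif match, followed by a member at each of 3 cardiac loci described later, which were picked after their values were seen.
Ube2ql1, chr13:69732675-69732875: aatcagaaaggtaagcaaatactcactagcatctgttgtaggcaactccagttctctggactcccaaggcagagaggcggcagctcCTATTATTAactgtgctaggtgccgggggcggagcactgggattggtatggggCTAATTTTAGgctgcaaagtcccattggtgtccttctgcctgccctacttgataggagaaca
Cox18, chr5:90178113-90178313: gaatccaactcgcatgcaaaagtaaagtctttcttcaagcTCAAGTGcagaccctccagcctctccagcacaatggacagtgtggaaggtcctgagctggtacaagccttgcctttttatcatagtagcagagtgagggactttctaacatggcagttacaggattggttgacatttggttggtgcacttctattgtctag
Zic4, chr9:91102076-91102276: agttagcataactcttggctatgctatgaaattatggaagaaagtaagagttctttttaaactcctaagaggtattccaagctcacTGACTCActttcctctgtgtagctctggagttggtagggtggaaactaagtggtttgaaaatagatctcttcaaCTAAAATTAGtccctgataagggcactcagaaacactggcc
Adamts15, chr9:30781315-30781515: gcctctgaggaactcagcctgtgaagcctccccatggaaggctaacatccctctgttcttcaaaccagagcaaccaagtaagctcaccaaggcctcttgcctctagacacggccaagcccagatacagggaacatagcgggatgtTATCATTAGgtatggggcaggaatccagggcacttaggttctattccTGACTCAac
Kcnd3, chr3:105375493-105375693: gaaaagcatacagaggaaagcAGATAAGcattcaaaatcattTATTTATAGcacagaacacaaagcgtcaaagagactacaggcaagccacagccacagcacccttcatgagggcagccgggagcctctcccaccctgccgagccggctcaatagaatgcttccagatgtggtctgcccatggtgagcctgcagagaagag
Ryr2, chr13:12133947-12134147: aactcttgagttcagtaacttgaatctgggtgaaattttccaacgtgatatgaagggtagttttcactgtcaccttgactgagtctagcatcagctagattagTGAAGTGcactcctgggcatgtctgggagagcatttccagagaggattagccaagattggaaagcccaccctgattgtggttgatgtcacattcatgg
Myocd, chr11:65243706-65243906: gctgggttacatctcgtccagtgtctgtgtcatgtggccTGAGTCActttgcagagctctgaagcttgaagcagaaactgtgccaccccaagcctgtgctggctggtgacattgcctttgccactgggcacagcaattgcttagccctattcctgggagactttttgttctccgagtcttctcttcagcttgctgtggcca
Cep85l, chr10:53346222-53346422: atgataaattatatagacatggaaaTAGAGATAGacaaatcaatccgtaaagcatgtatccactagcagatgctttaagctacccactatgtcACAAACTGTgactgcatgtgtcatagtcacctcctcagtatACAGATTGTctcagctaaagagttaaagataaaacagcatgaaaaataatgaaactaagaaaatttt
The windows named for Ube2ql1, Zic4, Adamts15, Kcnd3 and Cep85l held matches to the MEF2 pattern CTANNNNTA. The Kcnd3 window also held the GATA pattern AGATAAG, and the Ryr2 and Cox18 windows held the NKX2-5 pattern TNAAGTG. The Myocd window held only an AP-1 match, TGANTCA, among the 14 motifs. A match states that the letters are present and not that a factor was bound.

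Most private regions were weak next to other heart regions. The peak values of each region gave back the whole number of tags at its summit and the number expected there, and the level used here is summit tags divided by the library background, 4.92 tags in fed and 5.84 tags in fasting heart. In fed heart the members had a lowest level of 3.05, a median of 4.47 and a highest of 29.3, against a median of 6.30 over all heart regions in both states. In fasting heart the lowest was 2.91, the median 3.94 and the highest 18.2, against a median of 6.00. The members' summit tags ran from 15 to 144 in fed heart with a median of 22, and from 17 to 106 in fasting heart with a median of 23. Their median percentile rank was 64.2 in fed and 63.6 in fasting heart, and 80.3 and 82.6 over all heart regions in both states. Members were also short, with a median of 149 bp in fed heart against 241 bp, and 75.9% had a single summit against 48.4%.

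The q threshold cut through the dense part of these values. In fed heart the members nearest to it lay by Slc12a8 and Cacnb2, with a −log10 q of 2.00255 and 2.00293, and regions by Iqca and Nrp1 fell just outside at 1.99997 each. In fasting heart the members nearest to it lay by Srsf4 and Lifr, at 2.00063 and 2.00368. A further 1409 fed regions under the threshold met the rest of the rule.

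Absence of a peak in another tissue is also limited by its depth and by where its list ends. In fed brown adipose, with the highest background of 12.8 tags, the weakest listed region had a −log10 p of 7.11. In fasting brown adipose it had 2.48. At the library background, the other 14 lists began to name regions at levels from 2.22 times background in fasting brown adipose to 3.58 times in fasting spleen. The level exceeded 3.58 in both heart states for 1580 of 2763 members (57.2%). For the others, a region of equal level in the lists with the highest limits need not have been listed. Peaks of other tissues were often close by: 453 members (16.4%) had one within 100 bp and 1384 (50.1%) within 500 bp, with a median gap of 498 bp. Both conditions together, a level above 3.58 in both states and no other tissue's peak within 500 bp, were met by 765 members (27.7%).

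Skeletal muscle was the tissue whose lists removed the most candidates. Of 4973 heart regions overlapped by peaks of exactly 1 other tissue, 2513 were overlapped by muscle alone (50.5%), 624 by lung and 559 by spleen. Muscle peaks overlapped 85.1% of all heart regions in both states, and spleen peaks 64.8%. Regions open in all 7 other tissues numbered 34858 (44.8%).

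**Figure D1:**
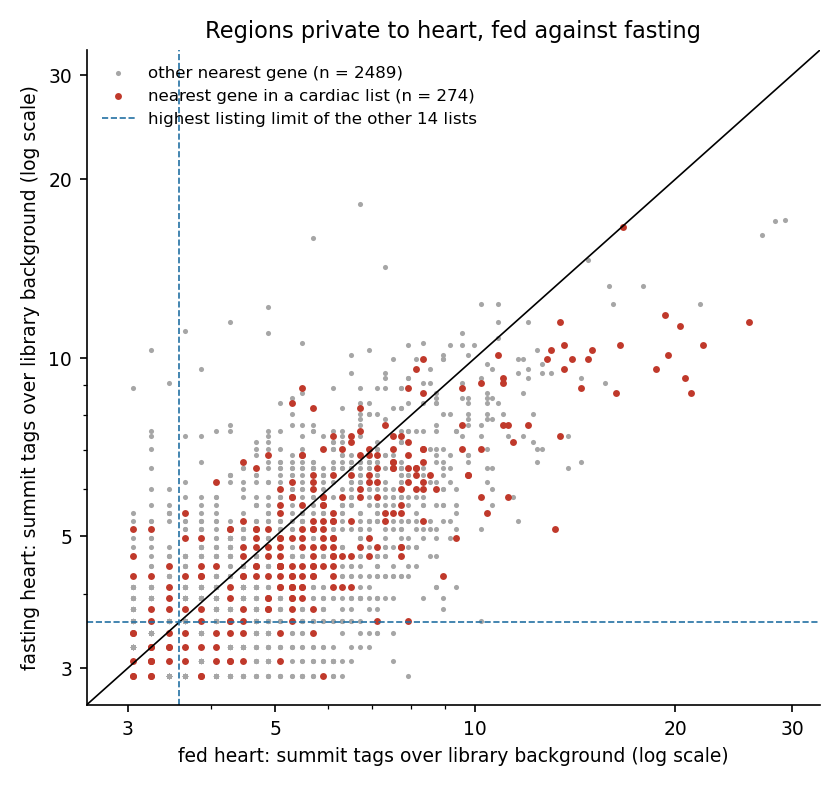
Each point is a region private to heart, placed by its summit tags over the library background in fed (x axis) and fasting heart (y axis), both on log scales; red points have a nearest protein-coding gene in a cardiac list and the dashed lines mark a level of 3.58. Of 2763 members, 1580 lie above both dashed lines, and the red points of highest fed level lie below the line of equality.

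Private regions lay far from gene starts. The summit was within 3000 bp of an annotated start for 562 of 2763 members (20.3%, 18.9 to 21.9), against 44.8% of all heart regions in both states, and within 1000 bp for 9.48% against 33.8%. The private regions of the other 7 tissues were alike in this, with 19.7% in lung to 23.2% in liver within 3000 bp. The median distance to a start was 11595 bp for members and 4374 bp for all heart regions in both states. Away from starts the private share was larger, with 2201 of 42946 regions over 3000 bp from a start being private (5.13%). To protein-coding starts alone the median distance was 25425 bp, and 942 members (34.1%) were over 50000 bp away.

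By annotation, 1518 member summits (54.9%) lay in introns, 990 (35.8%) were intergenic, 86 (3.11%) were in coding exons, 62 (2.24%) in untranslated regions and 107 (3.87%) in non-coding exons. Introns held 48.8% of all heart regions in both states, intergenic sequence 32.1% and untranslated regions 10.3%. Intergenic and intronic shares were thus higher and the untranslated share lower among members, outside the counting interval in each case.

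**Figure D2:**
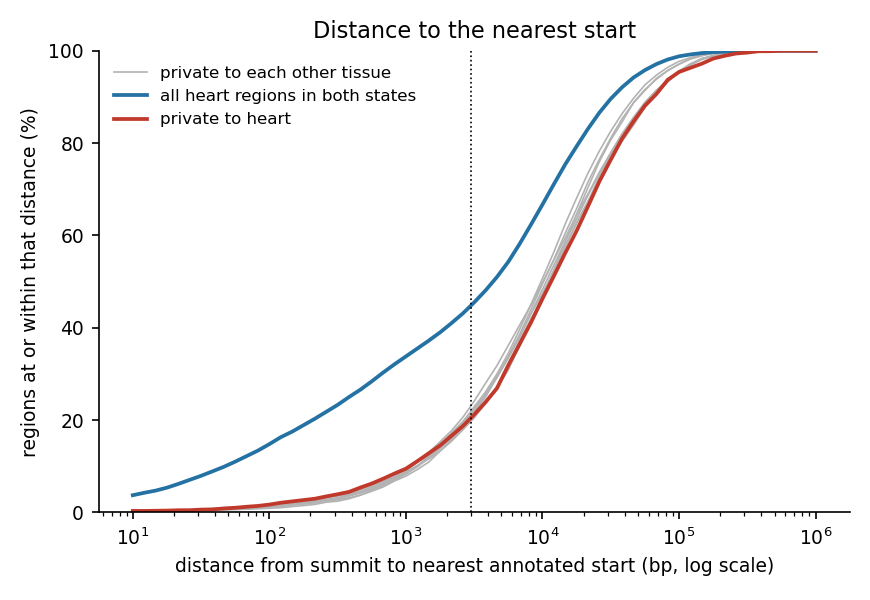
The curves give the percentage of regions (y axis) whose summit lay at or within a given distance of the nearest annotated start (x axis, log scale), with a dotted line at 3000 bp. At 3000 bp the members stand at 20.3% and all heart regions in both states at 44.8%, and the grey curves of the other tissues' private regions lie close to the members.

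Some genes had many members and most had none. The nearest protein-coding start belonged to 1783 of 21911 genes (8.14%), of which 1295 had 1 member, 291 had 2 and 1 had 44. That gene was Ryr2, which encodes the cardiac calcium release channel. The next were Corin, a protease that activates atrial natriuretic peptide, with 16 members, Cdh2, the N-cadherin of the intercalated disc, with 15, and Myocd, a coactivator of SRF in cardiac and smooth muscle, with 13. Cdh13, a cadherin without a transmembrane domain, had 12. Ablim1, an actin-binding LIM protein, and Cacna1c, the pore subunit of the L-type calcium channel, had 11 each. Camta1, a calmodulin-binding transcription activator, had 10.

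At several of these genes the private regions were a large part of what was open in heart. They made up 44 of 82 regions in both states at Ryr2 (53.7%), 16 of 27 at Corin (59.3%), 13 of 27 at Myocd (48.1%) and 15 of 35 at Cdh2 (42.9%). They were 11 of 82 at Ablim1 (13.4%), so its count went with a larger number of open regions. Muscle had 26 private regions of its own nearest to Cdh13 and none nearest to Ryr2, Corin, Cdh2 or Myocd. Liver had 14 nearest to Cdh2, against 15 in heart.

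Ryr2 held the group with the most members. The gene lies on the minus strand of chromosome 13 (GRCm38 chr13:11553102-12106945), and 35 of its 44 members fell inside the gene, 5 upstream and 4 downstream. In fed heart their levels ran from 3.66 to 12.8 with a median of 7.02, and in fasting heart from 3.43 to 9.94 with a median of 5.83. The level was lower in fasting for 37 of 44, which share a locus and are not independent of each other. A fasting level above the fed one was found for 32.5% of all members and 39.2% of all heart regions in both states. By rank the Ryr2 members went the other way, with a median of 61.9 in fed and 67.2 in fasting heart. The other 38 regions at Ryr2, which another tissue's peak overlapped, had medians of 7.93 in fed and 6.42 in fasting heart, so the private ones were not set apart by level.

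The highest-ranking Ryr2 member, chr13:12133453-12134103, lay 27102 bp upstream of the nearest Ryr2 start, with 54 tags in each state and levels of 11 in fed and 9.25 in fasting heart. An intronic member 1873 bp downstream of a start, chr13:12104516-12104665, had 63 tags in fed and 58 in fasting heart. A MEF2 match lay within 100 bp of the summit in 11 of the 44. Other tissues had few private regions nearest to Ryr2: 5 in kidney, 2 each in liver and lung.

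**Figure D3:**
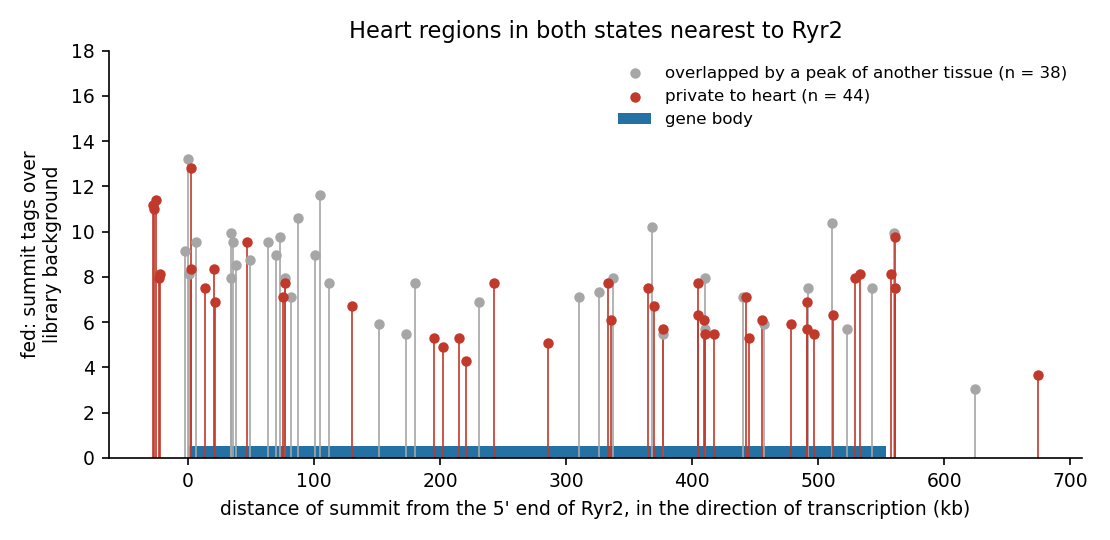
Each stem is a heart region present in both states whose nearest protein-coding start is that of Ryr2, placed by distance from the gene's 5′ end in the direction of transcription (x axis, kb) and by its fed level, summit tags over the library background (y axis). The 44 private regions (red) extend through the whole gene, whose body is the blue bar, and reach levels up to 12.8.

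The other 3 leading genes had levels in the same range. The highest-ranking Corin member, chr5:72435156-72435546 in a coding exon, had 29 tags in fed and 41 in fasting heart, levels of 5.90 and 7.02. Of the 16 Corin members 12 were higher in fasting, the opposite direction to the members as a whole. Their median levels were 5.90 in fed and 6.42 in fasting heart. They share a locus and are not independent of each other. At the highest-ranking one the fasting over fed level was 1.19, with a counting interval of 0.723 to 1.99. The intronic Cdh2 member chr18:16715336-16715758 had 54 and 45 tags, and a MEF2 match was found in 7 of the 15 Cdh2 members. The intronic Myocd member chr11:65243570-65244099, whose sequence is given above, had 53 and 59 tags with ranks of 91.5 and 94.4, and none of the 13 Myocd members held a MEF2 match.

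The genes with 10 to 12 members were led by regions of like tag numbers. At Cdh13 the highest-ranking member had 34 tags in fed and 30 in fasting heart, at Cacna1c 39 and 40, and at Camta1 29 in each state. The Ablim1 member was the highest of these, with 47 and 50 tags at chr19:57247265-57247569. All members nearest to Ablim1, Cacna1c and Camta1 lay inside the gene.

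Groups of neighbouring members were found at the same loci. Another member lay within 50000 bp for 1075 of 2763 (38.9%, 37.1 to 40.8), close to the 37.7% of white adipose, whose number of private regions was also close. Within 10000 bp the share was higher in heart, at 24.5% (22.9 to 26.2) against 17.5% (16.2 to 18.8) in white adipose. Joined at 50000 bp, the members formed 1688 singles, 271 pairs and 64 groups of 3. The largest groups held 29 members over 366 kb in Ryr2, 14 over 182 kb in Cdh2 (chr18:16634372-16816080), 14 over 162 kb at Myocd (chr11:65142944-65304679) and 14 over 138 kb in Corin (chr5:72365247-72503553). In the Corin group 14 of the 19 heart regions in the span were private (73.7%), in the Myocd group 14 of 23 (60.9%). A group of 7 members at Dhrs2 and Dhrs4 (chr14:55313621-55362687), picked after its values were seen, held no other heart region in both states. Its genes belong to a family of similar copies, so reads there may be shared between copies, which was not tested. By chromosome the private share was highest on chromosome 13, where Ryr2 lies (178 of 3424, 5.2%), and lower on X (12 of 1047, 1.15%) than on any autosome.

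The 8 lists of cardiac genes, with 143 genes in all, were compared with 10 lists of other cell types, 120 genes. At least 1 member was nearest to 69 of the 143 cardiac genes (48.3%, 39.8 to 56.8), against 8.14% of all protein-coding genes. A gene with more heart regions has more that can be private, and these genes held 1852 of the 77806 regions in both states. The lists were chosen with earlier results of these data known. By region, 274 of 1852 heart regions nearest to cardiac genes were private (14.8%, 13.2 to 16.5), against 3.55% of all heart regions in both states. The value was 13% without Ryr2 and 10.8% without the 8 genes with the most members. Regions at one gene share a locus and are not independent of each other.

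In the other tissues the cardiac genes stood nearer to the background. Among their regions, 3.69% were private in white adipose (3.36% of all its regions), 7.77% in brown adipose (5.84%), 12.8% in lung (8.78%), 13.2% in liver (11.4%), 13% in spleen (14.9%), 17.4% in kidney (16.5%) and 18.5% in muscle (12.2%). At the gene level, kidney also had 69 of 143 cardiac genes nearest to a private region, but there 36.0% of all protein-coding genes had one. For the other cell types, 11 of 516 heart regions were private (2.13%, 1.07 to 3.78).

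**Figure D4:**
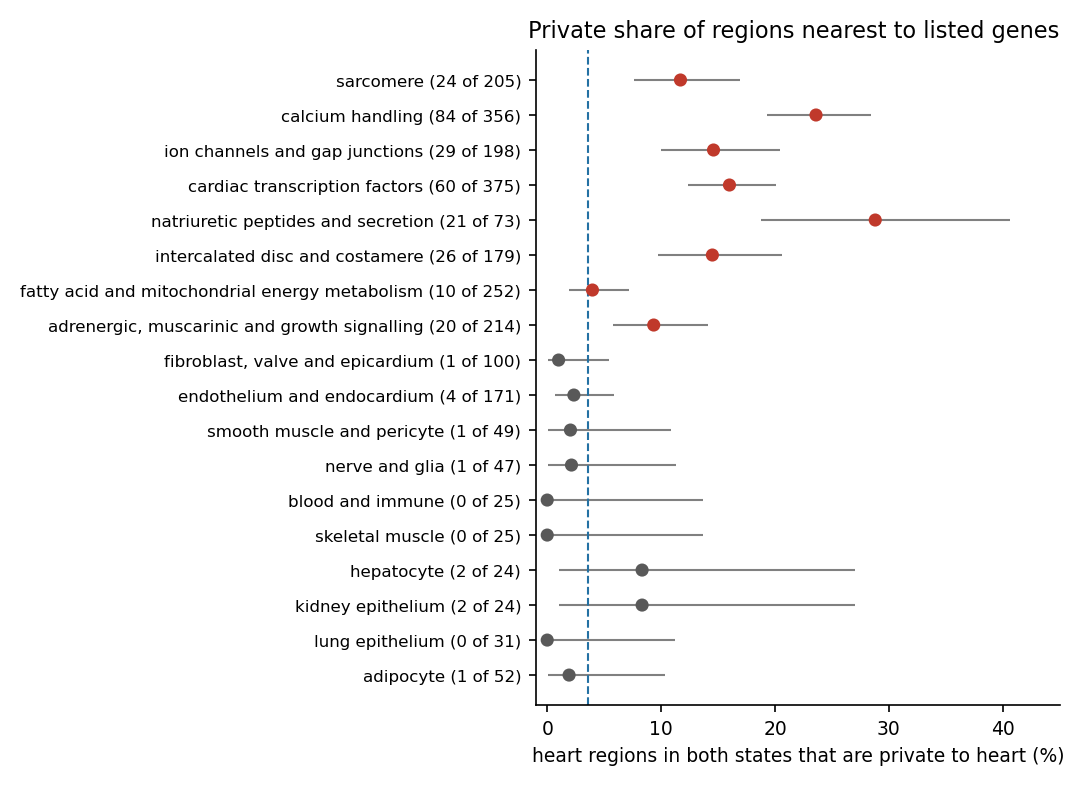
Points give, for each gene list, the percentage of heart regions in both states nearest to its genes that were private to heart, with exact 95% intervals and the counts in brackets; red marks the cardiac lists and the dashed line all heart regions at 3.55%. Calcium handling (23.6%) and natriuretic peptides and secretion (28.8%) lie farthest to the right, and fatty acid and mitochondrial energy metabolism (3.97%) lies on the line. Shares of these lists in other tissues are not drawn.

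Calcium handling genes had 84 private of 356 regions (23.6%, 19.3 to 28.4), with members at 9 of 15 genes, and 14.6% were private without Ryr2. In muscle 22.8% of regions nearest to this list were private to muscle, close to the share in heart. Apart from Ryr2 and Cacna1c, the most were at Slc8a1, the sodium-calcium exchanger, and Cacnb2, a channel beta subunit, with 9 members each. A member covered the Slc8a1 start itself (chr17:81738238-81738645, 18 bp from it), with 41 tags in each state and levels of 8.34 in fed and 7.02 in fasting heart. Muscle peaks alone overlapped another 30 of the 356 regions (8.43%).

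Sarcomere genes differed in this respect. They had 24 private of 205 regions (11.7%, 7.65 to 16.9), while 64 (31.2%) were shared with muscle alone. The share private to the tissue itself was higher in muscle (24.8%) and liver (17.1%), and 3.08% to 10.9% in the rest. Members lay at 11 of 20 genes, with 4 each at Myh6, Myh7 and Myl2, the cardiac myosin heavy and ventricular light chains, and 3 at Csrp3, a muscle LIM protein. Ttn, which encodes the giant spring protein titin, had 1 private region among 46 in heart and 67 regions private to muscle.

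Over 52.1 kb of chr14:54953722-55005786, 9 of 16 heart regions were private, nearest to Myh6, Myh7 and Ngdn. The Myh6 member chr14:54953722-54954798, in an intron, had 127 tags in fed and 67 in fasting heart, levels of 25.8 and 11.5. The Myh7 member at chr14:54994345-54994616, 7 bp from its start, had 108 and 61 tags, levels of 22.0 and 10.5. Both were higher in the fed library. Myh6 and Myh7 are close paralogs, and how reads common to both were placed was not tested.

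Cardiac transcription factors had 60 private of 375 regions (16%, 12.4 to 20.1), at 13 of 25 genes. In other tissues the share private to that tissue was 19.6% in liver, 19.5% in muscle, 17.6% in spleen and 17.2% in kidney. It was 15.4% in lung, 4.15% in brown adipose and 4.80% in white adipose. Besides Myocd, Hand2, a factor of the right ventricle, had 9 members, and the homeobox genes Irx3 and Irx4 had 6 and 5. The Irx4 member chr13:73270750-73270904 had levels of 10.2 in fed and 9.08 in fasting heart. Nkx2-5, a master regulator of heart formation, had 4 members among 12 regions. One covered its start (chr17:26841359-26841733, 62 bp from it), with 71 tags in fed and 52 in fasting heart, levels of 14.4 and 8.91.

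Natriuretic peptide genes had 21 private of 73 regions (28.8%, 18.8 to 40.6), of which 16 belonged to Corin, and 10.9% of regions were private without it. In lung 28 regions nearest to this list were private (32.2%), a larger share than in heart. Nppa, which encodes atrial natriuretic peptide, had 2 members among 3 regions. Both lay in untranslated sequence within the gene Clcn6 and had the same fasting value. The higher-ranking one, chr4:148004614-148004772, lay 3927 bp from the Nppa start with 27 tags in fed and 40 in fasting heart. Pam, an enzyme that amidates peptides, had 2, and the protease gene Furin had 1.

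Ion channel and gap junction genes had 29 private of 198 regions (14.6%), at 10 of 21 genes. Spleen (18.4%), muscle (17.1%) and brown adipose (15.3%) had larger private shares at this list, and the rest had 3.94% to 13.7%. Gja1, the gap junction protein connexin 43, had 9 members, and 8 of them were intergenic. The potassium channel gene Kcnd2 had 4 among 7 regions, and its highest-ranking member had 34 tags in fed and 27 in fasting heart.

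Genes of the intercalated disc and costamere had 26 private of 179 regions (14.5%, 9.71 to 20.6), at 8 of 16 genes, and 7.64% without Cdh2. Muscle (15.6%) and liver (15.3%) had like private shares at this list, and the rest had 3.49% to 14.4%. Pkp2, a plakophilin of the desmosome, had 4 members inside the gene and none in any other tissue. At chr16:16256648-16257008 its level was 8.13 in fed and 9.59 in fasting heart. Dsp, desmoplakin, had 2.

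Adrenergic, muscarinic and growth signalling genes had 20 private of 214 regions (9.35%, 5.8 to 14.1), at 10 of 16 genes. Private shares at this list were higher in kidney (23.0%), muscle (19.1%), liver (14.9%), lung (12.1%) and brown adipose (9.64%). Spleen (9.25%) and white adipose (3.92%) were lower. The muscarinic receptor gene Chrm2 had 4 members in heart. Adra1b, Pde3a and Pde4d, an adrenergic receptor and a pair of phosphodiesterases, had 3 each. The Pde3a member chr6:141273723-141274046 had levels of 10.4 in fed and 5.48 in fasting heart.

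Fatty acid and mitochondrial energy metabolism was the cardiac list nearest to the background, with 10 private of 252 regions (3.97%, 1.92 to 7.18). Of these, 5 belonged to Ppargc1a, a coactivator of mitochondrial genes, and 2.18% were private without it. Ppargc1b and Lpl had 2 each and Ucp3 had 1. Members were found at 4 of the 20 genes.

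Most lists of other cell types had shares near or below the 3.55% of all heart regions. Genes of fibroblast, valve and epicardium had 1 private of 100 regions, at Hmcn1, and those of endothelium and endocardium 4 of 171, with 2 at Emcn and 1 each at Kdr and Tek. Smooth muscle and pericyte genes had 1 of 49, at Abcc9, which is also in the channel list, nerve and glia 1 of 47, at Th, and adipocyte genes 1 of 52, at Cidea. Hepatocyte genes had 2 of 24, at Foxa2 and G6pc, and kidney epithelium 2 of 24, at Cdh16 and Slc12a3, a share of 8.33% in each that lay above the background with a wide interval of 1.03 to 27.0. Skeletal muscle had 0 of 25 and blood and immune 0 of 25, with an exact upper limit of 13.7% each, and lung epithelium had 0 of 31, with an upper limit of 11.2%. Counted as 3 regions over the total, these 0 counts allow up to 12% and 9.68%.

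Few members covered a promoter. Within 1000 bp of a protein-coding start lay 168 of them (6.08%), at 152 genes. The 8 with the highest mean rank belonged to Nkx2-5, Tnni3k, Aasdh, Fblim1, Zfpm2, Slc8a1, Doc2g and Mov10l1. Tnni3k, a cardiac kinase that binds troponin I, had a member 60 bp upstream of its start (chr3:155055261-155055822) with 50 tags in fed and 30 in fasting heart, levels of 10.2 and 5.14. Zfpm2, a cofactor of GATA factors, had one 974 bp downstream (chr15:40665866-40666165) with levels of 5.69 and 6.17. The Doc2g member had 78 and 77 tags, levels of 15.9 and 13.2. The fed level was the higher in 7 of these 8, Zfpm2 being the exception, and over all members 32.5% were higher in fasting. The counting interval of the fasting over fed level left out 1 at Nkx2-5, Tnni3k and Mov10l1 and held it at the others.

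Of all 2763 members, 274 (9.92%) had a nearest gene in a cardiac list. The members with the highest ranks were likewise mostly not nearest to listed genes. The top 12 by mean rank were nearest to Ube2ql1, Cox18, Zic4, Adamts15, Kcnd3, Auts2, Galnt18, Alox5, Antxr2, Tmpo, Nkx2-5 and Il12b, and of these only Nkx2-5 was in a cardiac list. The first, in an intron of the ubiquitin-conjugating gene Ube2ql1 (chr13:69732676-69733182), had 61 tags in fed and 60 in fasting heart, levels of 12.4 and 10.3 and ranks of 96.4 and 95.9. The second, 37368 bp downstream of Cox18 (chr5:90178133-90178614), had 60 and 42 tags. The Kcnd3 member lay 76737 bp upstream of this potassium channel gene (chr3:105375269-105375693), with 60 and 47 tags. Of the 12, 5 lay over 100 kb from the nearest protein-coding start, as at Auts2 (467346 bp).

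Ranked by level instead of by p, the order was different. Of the 12 members with the highest mean level, 7 were nearest to genes of the cardiac lists, against 1 of 12 by rank. Among the top 100 it was 32 by level and 13 by rank, against 9.92% of all members. The highest level belonged to a region 1065 bp from the start of Mir133a-2, a microRNA gene of striated muscle (chr2:180397063-180397372), with 144 tags in fed and 100 in fasting heart, and a second lay 89 bp from that start with 133 and 94 tags. An intronic region of Cep85l (chr10:53345608-53346392) had 139 and 99 tags. Phospholamban, Pln, which restrains the calcium pump, had a member 34 bp from its start with 66 and 43 tags. These members by level were picked after their values were seen.

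The p value weighs a summit against the tags expected around it, and this local background differed between members. Around members nearest to cardiac genes the expected tags were a median of 1.92 times the library background in fed and 1.68 times in fasting heart, against 1.07 and 1.05 times around the other members. Around the Ryr2 members they were 2.67 and 2.08 times. Members at cardiac genes had a median level of 5.69 in fed heart against 4.27 for the others, while their median fold enrichment over the local background was 2.76 against 3.02. At the first Mir133a-2 region the fold was 2.17, and at the Ldb3 member chr14:34568130-34568232, with 82 and 97 tags, it was 1.66 and 1.63.

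Members as a whole had like median ranks in fed and fasting heart, and a lower median level in fasting. The ranks of the 2 libraries correlated across the members with a Pearson r of 0.382, against 0.585 across all heart regions in both states, over regions that share both libraries. The fasting level over the fed level had a median of 0.905 and quartiles of 0.775 and 1.05, against a median of 0.934 over all heart regions in both states. It was above 1 for 32.5% of members and 39.2% of all. With the tag numbers of a typical member, the counting interval of this ratio ran from 0.481 to 1.75, so most members could not show a difference of that size or less.

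At 1.5-fold or more, 65 members (2.35%, 1.82 to 2.99) were higher in fasting, against 6.41% of all heart regions in both states, and 280 (10.1%, 9.03 to 11.3) were lower, against 8.26%. The rule used both heart libraries, so these counts are descriptions. Among regions of like level, from 3.08 to 8.31 on the mean of both states, 2.4% of members and 5.52% of all heart regions were higher in fasting, and 9.71% and 8.0% lower. The counting interval left out 1 for 23 members that were higher and 120 that were lower in fasting, with no correction for the number of regions.

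The members of the highest level differed most between the libraries. Of 25 members with a mean level from 12 to 30, which none exceeded, 24 were lower in fasting, with a median ratio of 0.60, against 0.856 over the 12025 heart regions in both states of that range. All 15 of these at cardiac genes were lower, with a median of 0.556. They include the 4 members of Myh6 and the 4 of Myh7, which lie in the same group. Neighbouring members are not independent of each other, so the 15 are not separate loci. The Ldb3 member among them had a ratio of 0.997 (counting interval 0.735 to 1.35). The Myh6 intron member had a ratio of 0.444 (counting interval 0.326 to 0.602), the Myh7 member 0.476 (0.342 to 0.657) and the first Mir133a-2 region 0.585 (0.449 to 0.760). Over all 274 members at cardiac genes the median was 0.869, and 69 (25.2%) were higher in fasting. With 1 pooled library per state, feeding state, dissection and cell make-up cannot be told apart.

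The largest differences of rank were at single sites with few tags in one state. Those higher in fasting were nearest to Ttc7b (chr12:100276582-100276785, from 24 to 71 tags, ratio 2.49), Lrrc74a (24 to 64), Iqsec1 (16 to 44) and Tspyl5 (15 to 52). Their ranks moved by 55.4 to 58.4 points. Those lower in fasting were nearest to Myt1l (chr12:29829006-29829198, from 30 to 17 tags, ratio 0.477), Car8 (30 to 17), Grm4 (39 to 17) and Inhbb (27 to 17). The 4 fasting values of the latter stood at 17 tags, the lowest number a member had there. None of these 8 genes was in a cardiac list.

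Members held MEF2 and GATA matches more often than other heart regions did. Searched on both strands within 100 bp of the summit, the MEF2 pattern CTANNNNTA was found in 743 of 2763 members (26.9%, 25.2 to 28.6), against 15.6% of all heart regions in both states and 18.8% of those over 3000 bp from a start. The GATA pattern AGATAAG was found in 155 (5.61%, 4.78 to 6.53), against 2.41% and 3.05%. Both together were found in 45 members (1.63%, 1.19 to 2.17), against 0.485% of all. The TEAD pattern CATTCC was found in 13.8% against 11.2% and 12.8%, and NKX2-5, TNAAGTG, in 11.3% against 8.44% and a share just below the members' interval. Their counting intervals, 12.6 to 15.2 and 10.2 to 12.6, put both close to the regions away from starts. The comparison sets include the members.

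Compared with the private regions of other tissues, the MEF2 share in heart was matched only in muscle (28.3%), and the rest lay between 15.8% and 19.6%. The GATA share was the highest of the 8 tissues, followed by liver at 4.33% (3.97 to 4.71), lung at 3.65% and others down to 1.36% in brown adipose. NKX2-5 was found most in lung (20.5%), and TEAD ran from 7.58% in spleen to 16.7% in lung. Muscle was below heart for GATA, at 1.74%.

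Motifs common at promoters and insulators were scarce. The name CTCF stands for a longer pattern, which was found in 4 members (0.145%) against 4.97% of all heart regions in both states, and in 0.0734% to 0.270% of the private regions of other tissues. KLF/SP, GGGCGGG, was found in 1.48% against 12% of all and 3.81% of those away from starts. ETS, CCGGAAG, was found in 0.688% against 3.73%. The E-box CAGCTG was found in 14.8% against 17.4%, and AP-1 in 7.67% against 7.4%. The steroid receptor pattern ACANNNTGT was found in 7.02% against 6.04%, ESRR, TCAAGGTCA, in 1.01% against 0.510%, and TBX5, AGGTGTGA, in 0.977% against 0.655%. The CArG box bound by SRF was found in 1.23% against 0.892%, and the full NFI site in 0 of 2763, which allows a share of up to 0.109% when counted as 3 regions over the total, with an exact upper limit of 0.133%. Over 3000 bp from a start, the order was the other way for AP-1, in 7.95% of members (6.85 to 9.16) against 9.23%. There the steroid receptor pattern was in 7.18% of members (6.13 to 8.34) against 7.56%.

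**Figure D5:**
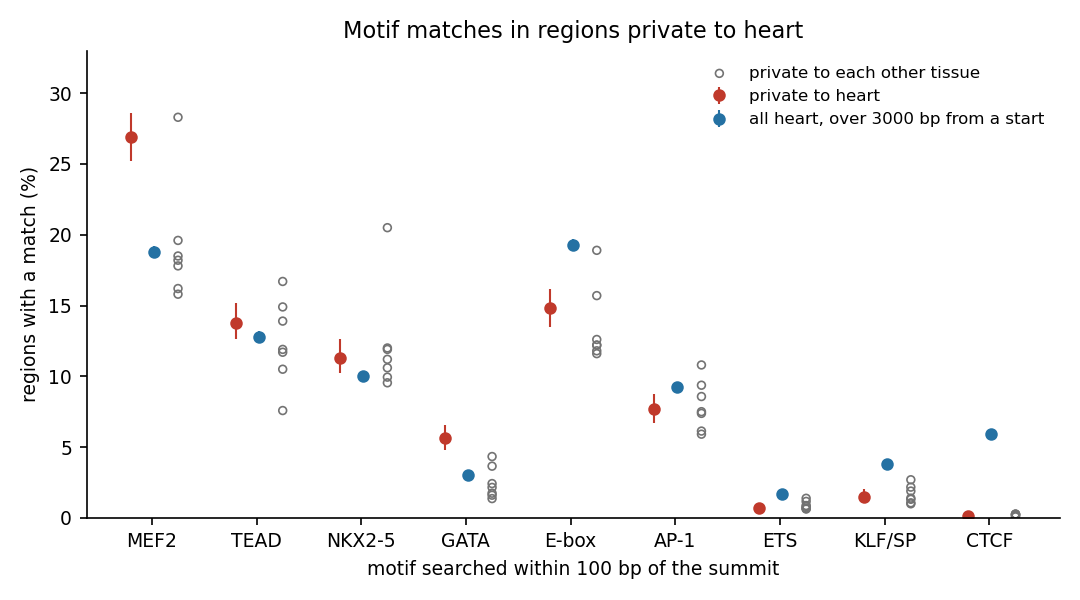
For 9 motifs, the y axis gives the percentage of regions with a match within 100 bp of the summit, with exact 95% intervals for the regions private to heart (red) and for all heart regions in both states over 3000 bp from a start (blue); open circles are the private regions of each other tissue. MEF2 stands at 26.9% in heart beside 28.3% in muscle, and GATA at 5.61% above every other tissue.

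Base composition moved with these shares. The windows of members had a median GC content of 48.8% and those of heart regions away from starts 51.7%, and MEF2 letters are rich in A and T. Split by GC content and away from starts, MEF2 matches were in 45.9% of members against 36.5% below 45% GC, in 27.7% against 24.5% from 45 to 50%, in 18.3% against 15.4% from 50 to 55%, and in 11.4% against 8.85% above. The share was higher in members in all 4 bins. The members' intervals, 41.7 to 50.1, 24.6 to 31.0, 15.3 to 21.7 and 7.75 to 15.9, left out the other share in the lower 2 bins and held it in the upper 2. GATA matches were in 7.03%, 5.24%, 4.87% and 5.10% of members in the 4 bins, against 4.46%, 3.38%, 2.90% and 2.24%, with no overlap of the intervals in any bin. Repeats masked in the reference made up 11.4% of member bases and 9.47% of those away from starts.

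GATA matches were densest at the summits. They stood at 0.347 per kb within 25 bp of a member's summit, 0.257 from 50 to 100 bp and 0.180 from 250 to 500 bp, and at 0.131, 0.172 and 0.145 around heart regions away from starts. MEF2 matches stood at 1.38 per kb within 25 bp, 1.74 from 25 to 50 bp and 1.69 from 50 to 100 bp. Farther out they stood at 1.30 from 100 to 250 bp and 1.43 from 250 to 500 bp. Around heart regions away from starts the values were 0.934, 1.14, 1.17, 1.13 and 1.23. The members' MEF2 density was thus highest from 25 to 100 bp, and within 25 bp it lay between the values beyond 100 bp.

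The stronger members held motifs more often. Among members with q under 1e-06 in both states (321), MEF2 was found in 34.6% (29.4 to 40.1) and GATA in 9.35% (6.39 to 13.1), and among the 110 with q under 1e-10 MEF2 was found in 39.1% (29.9 to 48.9) and GATA in 11 members. Over all heart regions in both states of the same strength, both shares were lower at a stricter q, with 12.3% and 1.68% at q under 1e-10. The share of these regions within 3000 bp of a start was 44.8% at q under 0.01 and 64.4% at q under 1e-10. For members it was 562 of 2763 and 22 of 110. Whether the contrast with members also widened away from starts, or at like GC content, was not tested. Among the 1580 members above the level of 3.58 in both states, MEF2 was found in 27.5%, GATA in 6.77%, and 14.5% had a nearest gene in a cardiac list, against 2.5% of all heart regions above that level. Members with and without a peak of another tissue within 500 bp had MEF2 in 23.5% and 30.3%, and a cardiac gene in 8.60% and 11.2%.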

How the data were processed

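Peak lists of 16 ATAC-Seq libraries, 1 for each of 8 tissues fed or fasting, were analysed, and groups were taken from the labels. The authors aligned trimmed reads with Bowtie2 (GRCm38), discarded duplicates and reads that were unmapped or mitochondrial, offset the ends to the Tn5 cut, and called peaks with MACS2, with a cap on list length and a blacklist filter. Versions are not given in the sources used here. Fold enrichment was deposited as a ratio made by the authors, summit tags plus 1 over expected tags plus 1. The deposited −log10 p and −log10 q values come from the authors' MACS2 Poisson test within each library and are not scaled between libraries.

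Rows that repeated a position, 1 for each summit, were merged into 1 region with its smallest p. Rank is the percentile of −log10 p within a list. Summit tags, taken as whole numbers, and expected tags were recovered from the fold and p of each region. The −log10 p they gave was within 0.001 of the deposited value in 100% of regions. The background of a library is its most common expected value, which ran from 2.80 to 12.8 tags over the 16 libraries. The lists held 149835 to 239804 regions, of which 131688 to 225899 had q under 0.01, and for heart 206098 listed regions in fed and 205981 in fasting. Read totals were not used here. Ratios of levels between fed and fasting have exact 95% intervals from their tags.

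Distances were measured from the fed summit to 132629 annotated starts of GENCODE vM21, and genes were assigned by the nearest of 21911 protein-coding genes. Annotation classes and the 14 motifs, searched on both strands within 100 bp of the summit, used GRCm38. The steps were tested on simulated data, with 5 of 5 giving 0 wrong answers. Python 3.11.15, pandas 2.3.3, scipy 1.17.1 and samtools 1.23.1 were used.

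Named genes were the nearest genes of the 12 members of highest mean rank, the 8 genes with most members, up to 4 genes of each list, 8 promoter members, 4 members with the largest difference of rank in each direction and the 4 groups with most members within 50000 bp of each other. Members, lists and rules were chosen with earlier results of these data known. With 1 library per group no test between groups was run. The alternatives were stricter q thresholds, other overlaps, windows, start sets and ranks, fasting heart as the base, and leaving out other tissues.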

Additional observations from a re-analysis of the deposited data

How the results depend on the processing

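Of 47 alternatives for 8 values, 20 left the value close and 27 moved it, where close means within 1.5 times for the number of regions and within the counting interval of the reported value for shares and medians, which is narrow. The number of private regions was 2763, and became 1282 at q under 0.001, 321 at q under 1e-06, 1770 with overlap by 50% of both lengths, 1379 when a peak of another tissue within 500 bp excluded a region, 1580 with levels above the highest list limit (an alternative chosen after seeing the data) and 5276 without the muscle lists. The other alternatives, among them leaving out each other tissue, gave 2707 to 3387.

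The share within 3000 bp of a start was 17.8% at q under 1e-06, 17.8% with the 500 bp exclusion, 24.4% above the list limit, 9.48% at 1000 bp and 13.4% for protein-coding starts. The median rank within regions of q under 0.01 was 45.7 in fed and 48.6 in fasting, and by fold enrichment 63.7 in fasting. MEF2 matches were in 13.4% within 50 bp (7.57% of all heart regions in both states), 49.7% within 250 bp (35.4%), 32% at q under 0.001 and 34.6% at q under 1e-06. GATA matches were in 2.97% within 50 bp (1.08%), 11.2% within 250 bp (6.04%), 7.49% and 9.35% at these q thresholds, and 6.77% above the list limit. The share of cardiac genes with a member was 36.4% at q under 0.001, where 4.18% of all genes had one, and 18.2% at q under 1e-06, against 1.24%. Another member lay within 10000 bp for 24.5% and within 100000 bp for 49.1%.

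No paired analysis was possible because each group is 1 library and no value comes from a test. Leaving out each replicate in turn was not possible either, with 1 library in each group. Depth and the end of a list limit which weak regions it holds, so absence from a list is not absence of accessibility.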
